A study of Mus musculus with 4 samples.

Results

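Basement membrane components were followed as 32 genes, picked by symbol because their products build or attach to the thin sheet of matrix that underlies epithelia and endothelia and wraps fat, muscle and Schwann cells. They stood for collagen IV, XV and XVIII, the laminin chains, the nidogens, the heparan sulfate proteoglycans perlecan and agrin, and associated proteins, and all 32 were found among the 47069 Ensembl identifiers of the table. The list names gene families and uses no threshold on a value, but it was drawn up with results of these data known. Its counts are therefore a description, set beside the share of all genes that passed the same test. The adjusted p-values of members come from the contrast that was known when the list was made, so they set each change against the spread of the libraries and are no independent evidence for the group.

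The values came from mBMSCs, the stromal cells that adhere when the marrow of tibia and femur is plated, taken from wild type C57BL/6J mice of 8 weeks and used at passage 1. Both groups were kept for 3 d with 1 μM DEX (dexamethasone, a synthetic glucocorticoid), so neither shows cells without the hormone. One group also received 50 μM GA (ginkgolic acid, an inhibitor of sumoylation), and the other an equal volume of the solvent DMSO. Each group had 2 libraries. The read totals behind the deposited values, recovered from those values, were 31069538 and 25717834 with DMSO and 21559951 and 24611800 with GA. Whether the 2 libraries of each treatment stem from different animals or culture wells is not said in any source used here. The p-values therefore speak only of the spread between these libraries, and that spread may be technical.

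The cultures held more than 1 kind of cell. The summed FPKM (reads divided by gene length in kilobases and by library depth) of 7 adipocyte markers was 33.2 to 33.4 in DMSO plus DEX and 4961 to 5728 in GA plus DEX, and that of 7 osteoblast markers went the other way, from 18707 to 19609 down to 11175.5 to 11798.5. Macrophage markers (6 genes) summed to 2142 to 2402 and 2695 to 3191, and osteoclast markers (6 genes) to 246 to 257 and 448 to 504. The 8 endothelial markers were low, at 3.24 to 3.62 and 5.80 to 10.4 in all, and none of the 8 reached 1 FPKM in every library. Only 3 of them were high enough to be tested, of which Pecam1 and Cdh5 were called higher and Esam was not called. Pecam1 went from 0.534 and 0.503 to 2.19 and 1.495 FPKM, and Cdh5 from 0.743 and 0.722 to 2.35 and 1.80. Kdr, Tie1 and Esam overlapped between the groups. Tek, Emcn and Vwf were higher in both GA libraries, but under 1 FPKM on average. The 6 mural cell markers summed to 244 to 279 and 322 to 327, with Mcam at 1.251 and 1.61 against 57.6 and 57.4. Without Mcam the sums overlapped, at 242 and 277 against 269 and 265. Most of each was Acta2, at 226 and 260 against 249 and 244. Rgs5 was called higher (1.79-fold) and Cspg4 lower (1.37-fold), Acta2 and Des were not called, and Myh11 was too low to be tested. All 6 epithelial markers lay below 1 FPKM in every library, and the Schwann cell factor gene Sox10 was listed at 0 in the first GA library. The part of these cell types in the values given here was not tested, and in bulk RNA fewer cells of a type and less RNA per cell cannot be told apart.

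A basement membrane rests on 2 polymers. Collagen IV protomers, each of 3 α chains, join into a covalent net, and laminins, crosses of 1 α, 1 β and 1 γ chain named by the numbers of their chains, assemble on the cell surface. Nidogens and perlecan bridge both layers. Fat cells are surrounded by such a sheet, whereas the mineralized matrix of bone is built mainly on fibrillar collagen.

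Of the 32 members, 21 had a mean of at least 1 FPKM over the 4 libraries and were tested with limma on log2(FPKM + 1). In GA plus DEX 14 were higher and 5 lower, and 2 did not pass at an adjusted p under 0.05. Of all 12174 genes tested, 46.3% were higher and 11.9% fell, so 58.3% passed. The median log2 fold change was 0.42 over the 21 members and 0.19 over all genes tested. The groups did not overlap for 20 of the 21 members, and for 80.9% of all genes tested. With each library shifted on the log scale to 1 common median, 10 members were higher, 5 lower and 6 did not pass, where 19.5% of all genes were higher and 27.9% lower (47.4% in all). With voom on the recovered reads it was 12 higher and 5 lower, beside 24.1% and 25.2% of all genes (49.3%), and after quantile normalization 12 higher beside 19.7%, with 26.9% of all genes lower. The rises of Lama2, Lama4, Hspg2 and Nid2 are the 4 that did not pass after the median shift.

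**Figure D1:**
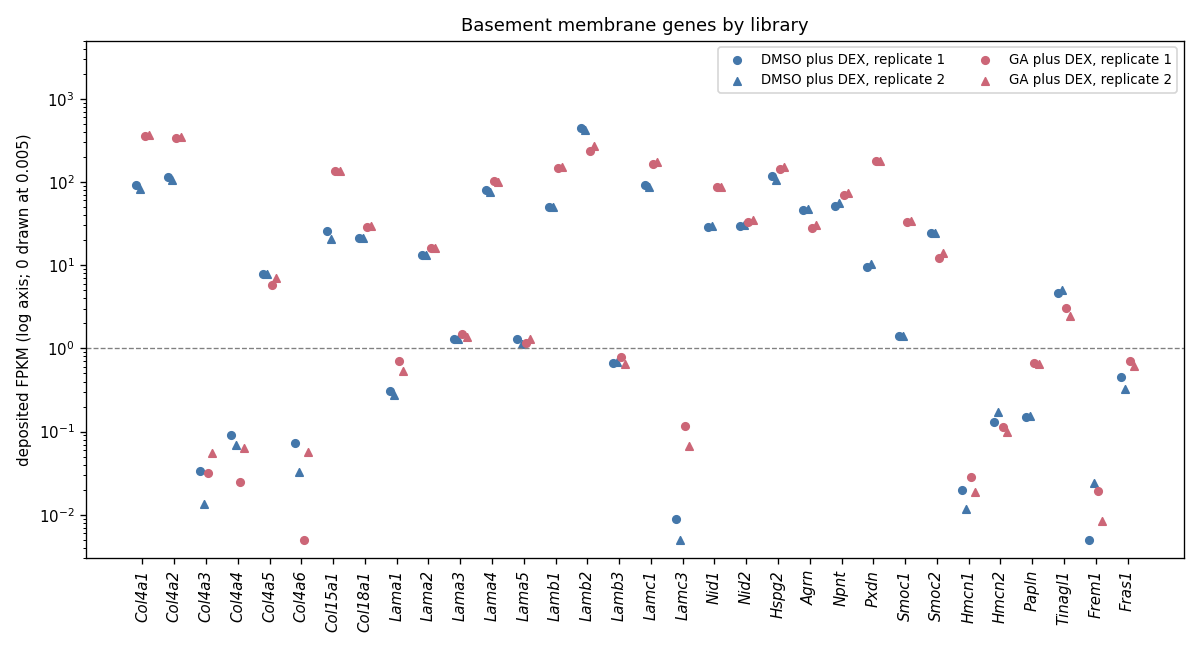
Deposited FPKM of the 32 members in each of the 4 libraries, on a log axis, in the order collagens, laminins and other components. Circles and triangles are replicates 1 and 2, blue is DMSO plus DEX, red is GA plus DEX, the dashed line marks 1 FPKM, and values of 0 are drawn at 0.005. Pxdn and Smoc1 show the widest gaps between the groups among the members tested, and 11 members lie below the line on average.

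**Figure D2:**
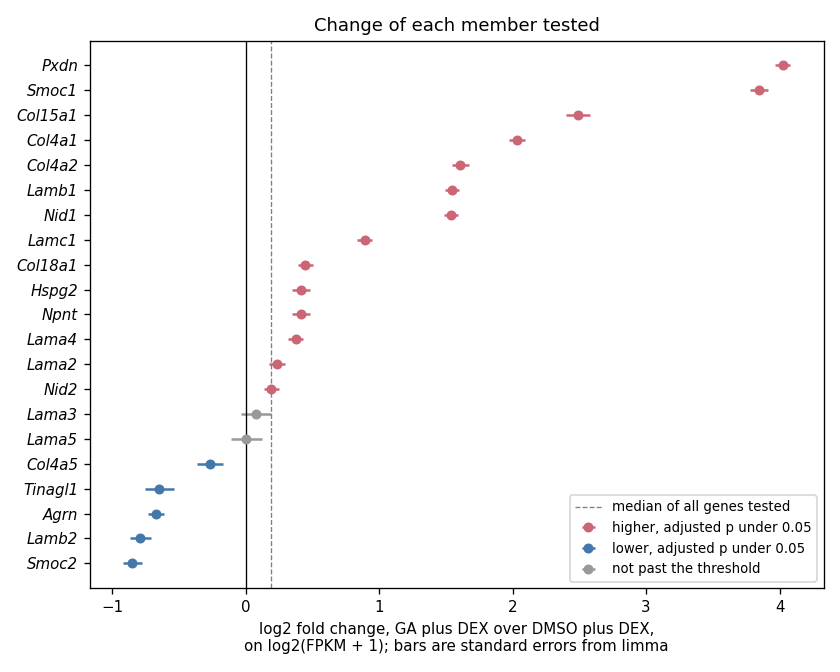
Log2 fold change of the 21 members tested, on log2(FPKM + 1), with standard errors from limma as bars. Red points were higher, blue points lower and grey points not past an adjusted p under 0.05, and the dashed line is the median of all genes tested, at 0.19. The points run from Smoc2 at -0.85 to Pxdn at 4.02.

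The α1 and α2 chains of collagen IV, which form the net of nearly every basement membrane, were the abundant chains and rose. Col4a1 was at 91.0 and 83.4 FPKM in DMSO plus DEX and at 358 and 362 in GA plus DEX, 4.13-fold (log2 fold change 2.03 ± 0.06 (SE), adjusted p = 2.82e-07 from limma). Col4a2 was at 116 and 105 FPKM against 335 and 342, 3.06-fold (log2 fold change 1.61 ± 0.06 (SE), adjusted p = 1.11e-06). For each gene the lower GA library exceeded the higher DMSO library. The 2 genes did not move by the same factor. The Col4a1 to Col4a2 ratio of FPKM, in which the scaling of a library cancels, was 0.787 and 0.792 with DMSO and 1.07 and 1.06 with GA. With 2 libraries a group an exact permutation test cannot go below a two-sided p of 0.333, so shares and ratios within a library are described without a test.

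Col4a1 and Col4a2 lie head to head on mouse chromosome 8. The start of 1 transcript per gene was taken from GENCODE M21, 11312826 on the minus strand and 11312805 on the plus strand. These starts overlap by 22 bases, so that the strands of 1 short stretch lead into both genes. The stretch, with bases from the RefSeq window (GRCm38.p6), is shown because the members beside it moved the same way. It is read on the Col4a2 strand, with the 22 shared bases in capitals.
Col4a2 and Col4a1 starts, chr8:11312801-11312830: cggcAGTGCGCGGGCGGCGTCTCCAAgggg
The other collagen IV genes stand in the same arrangement, with 126 bases between the annotated starts of Col4a4 and Col4a3 on chromosome 1 and 1333 between those of Col4a6 and Col4a5 on the X chromosome. Those pairs were far lower in every library.

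Col4a5, the chain that pairs with either the α3 and α4 or the α6 chain, was at 7.83 and 7.93 FPKM with DMSO and at 5.74 and 7.09 with GA. It was the weakest call among the members (log2 fold change -0.27 ± 0.10 (SE), adjusted p = 0.0455 from limma). Without DMSO plus DEX replicate 1 or 2 its log2 fold change was -0.27 and -0.26, with adjusted p = 0.0922 and 0.106. Leaving out a GA library moved the value itself, to -0.13 without replicate 1 (adjusted p = 0.234) and -0.40 without replicate 2 (0.00675). Among the FPKM of the 6 chains the share of Col4a5 went from 3.65% and 4.03% to 0.822% and 0.996%. The chains it pairs with had almost no reads. Col4a3 had 1 to 4 reads per library, Col4a4 3 to 16, and Col4a6 0 to 8. None of these 3 genes was tested, and no change in them was detectable at this depth. Of the 3 known protomers of collagen IV, only α1α1α2 had every chain at 1 FPKM or more in both libraries of a group, and it did so with either treatment.

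Pxdn, peroxidasin, which joins collagen IV protomers through sulfilimine bonds, had the largest log2 fold change of the 21 members tested on log2(FPKM + 1), though with a pseudocount of 0.1 Smoc1 led it (4.48 against 4.14). It was at 9.62 and 10.4 FPKM with DMSO and at 178 and 177 with GA, 17.8-fold (log2 fold change 4.02 ± 0.06 (SE), adjusted p = 1.10e-08 from limma). The spread within each group was small beside that gap. Per FPKM of Col4a1, Pxdn went from 0.106 and 0.124 to 0.497 and 0.490, so it increased by more than its substrate. Col15a1 and Col18a1 encode the multiplexins, collagens that carry glycosaminoglycan chains at the outer face of the sheet. Col15a1 was at 25.7 and 20.8 FPKM with DMSO and at 135 and 135 with GA, 5.80-fold (log2 fold change 2.49 ± 0.09 (SE), adjusted p = 7.54e-07). Col18a1, the precursor of endostatin, changed less, from 21.3 and 21.0 to 28.5 and 29.9 FPKM, 1.38-fold (adjusted p = 4.50e-04).

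Among the laminin β chains, β1 rose and β2 fell. Lamb1 was at 49.9 and 50.3 FPKM in DMSO plus DEX and at 148 and 149 in GA plus DEX, 2.96-fold (log2 fold change 1.55 ± 0.05 (SE), adjusted p = 4.58e-07 from limma). Lamb2, which encodes the β chain of the neuromuscular junction, the glomerulus and the vessel wall, was at 451 and 423 FPKM against 237 and 270.2, 1.73-fold lower (log2 fold change -0.79 ± 0.08 (SE), adjusted p = 1.33e-04). The directions were opposite and neither pair of libraries overlapped the other. As a share of Lamb1 plus Lamb2 FPKM, Lamb1 went from 9.97% and 10.6% to 38.4% and 35.6%, and the Lamb1 to Lamb2 ratio rose 5.13-fold. Lamb3, the β chain of epithelial laminin 332, stayed under the minimum of the test, at 29 to 38 reads per library.

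The stretches of DNA ahead of the 2 β chain genes are shown because the genes moved in opposite directions. They come from the RefSeq windows of GRCm38.p6, on the plus strand, and stop where GENCODE M21 has an exon. Capitals mark GC boxes (GGGCGG on either strand) and CCAAT boxes (CCAAT on either strand).
Lamb1, chr12:31265043-31265233: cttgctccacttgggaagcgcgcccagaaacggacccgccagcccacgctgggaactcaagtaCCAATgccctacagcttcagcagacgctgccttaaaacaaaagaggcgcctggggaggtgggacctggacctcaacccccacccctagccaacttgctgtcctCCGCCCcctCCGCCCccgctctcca
Lamb2, chr9:108479612-108479735: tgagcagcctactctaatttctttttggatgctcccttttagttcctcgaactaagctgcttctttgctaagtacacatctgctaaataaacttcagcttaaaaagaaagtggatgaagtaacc
The Lamb1 stretch held 2 GC boxes and 1 CCAAT box in 191 bases, and the Lamb2 stretch held none of either in 124. The annotated starts are at 31265293 for Lamb1 and 108479862 for Lamb2, so the Lamb2 stretch ends farther ahead of its start. The bases next to each start lie outside both stretches. These 2 counts therefore do not compare the same part of the promoters. Of the 32 members, 22 had RefSeq windows, 28 in all. A GC box stood in 16 of the 28 and in 35.7% of all 32851 windows, a CCAAT box in 10 and in 37.4%, and TATAAA on either strand in 0 and in 13.6%. A match is a string of letters and not a site shown to be used.

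The γ1 chain, which nearly all laminins contain, rose. Lamc1 was at 92.6 and 87.4 FPKM with DMSO and at 164 and 172 with GA, 1.87-fold (log2 fold change 0.89 ± 0.06 (SE), adjusted p = 1.52e-05 from limma). Lamc3 had 1 and 0 reads with DMSO and 9 and 6 with GA, too few for a fold or a test.

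Of the α chains, which bind the receptors, α4 led in every library. Lama4, the α chain of mesenchymal, fat and vessel laminins, was at 80.5 and 76.7 FPKM with DMSO and at 103 and 101 with GA, 1.30-fold (log2 fold change 0.38 ± 0.05 (SE), adjusted p = 8.87e-04 from limma; 0.0728 after the shift to a common median). Lama2, the α chain of muscle and Schwann cell laminin, was at 13.4 and 13.4 FPKM against 16.0 and 15.9, 1.19-fold (log2 fold change 0.23, adjusted p = 0.0101; 0.975 after the shift). Their shares of the summed α chain FPKM hardly moved, at 83.2% and 82.6% against 84.2% and 84.1% for Lama4, and at 13.8% and 14.5% against 13.0% and 13.3% for Lama2. Lama3 (1.31 and 1.30 FPKM against 1.49 and 1.38, adjusted p = 0.559) and Lama5, the broadest α chain of adult tissue (1.28 and 1.13 FPKM against 1.15 and 1.28, adjusted p = 0.966), did not pass. Lama1, the chain of the early embryo, was too low for the test, at 0.311 and 0.274 FPKM against 0.707 and 0.542, from 67 to 145 reads per library. With no minimum it was called higher (adjusted p = 0.0442).

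With 1 FPKM in both libraries of a group as the minimum for each chain, 8 of 14 known laminin trimers could be formed from the mRNAs present, and the same 8 in each group at this minimum. They were laminins 211, 221, 311, 321, 411, 421, 511 and 521, all with γ1. The α3 and α5 trimers rested on chains at 1.13 to 1.49 FPKM, and at a minimum of 5 FPKM only 211, 221, 411 and 421 were left in both groups. At 0.5 FPKM there were 9 with DMSO and 11 with GA, since 332 was added in both and 111 and 121 with GA alone. Laminin 332 lacked Lamb3 at this minimum, and the α1 and γ3 trimers lacked Lama1 and Lamc3. By abundance, the chains of laminins 411 and 421 led. In DMSO plus DEX the lowest chain of 421 was Lama4, at 78.6 ± 2.68 FPKM (SD, n = 2), and that of 411 was Lamb1, at 50.1 ± 0.263. In GA plus DEX Lama4 was the lowest chain of both, at 102. The α chain mRNA, not the β chain, was thus the smallest of the 3 behind either trimer with GA. These are mRNAs of a mixed culture, so chains counted together need not be made in 1 cell, and protein was not measured.

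**Figure D3:**
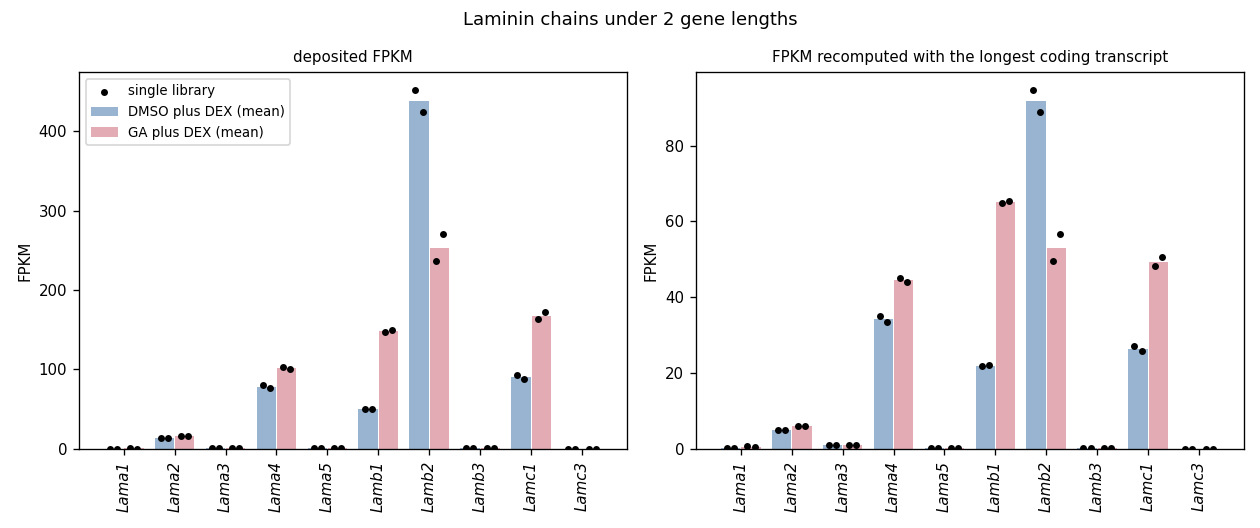
FPKM of the 10 laminin chain genes among the members, as deposited (left) and recomputed with the longest coding transcript as the length (right). Bars are means of 2 libraries, blue for DMSO plus DEX and red for GA plus DEX, and dots are single libraries. In GA plus DEX, Lamb2 is above Lamb1 on the left (253 against 148) and below it on the right (53.1 against 65.1).

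The order of levels between chains depended on the length by which reads were divided. Lengths recovered from the values equalled, within 1 base, the mean length of all transcripts that GENCODE M21 lists for the gene in 22 of the 32 members. This mean counts short fragments. Over all 32 members the longest coding transcript was 0.998 to 4.77 times the length behind the FPKM, with a median of 1.85. The highest was Lamb2, with 7 annotated transcripts, a length of 1180 bases behind its FPKM and a longest coding transcript of 5629 bases. Lamc1 (3.40-fold) and Lama5 (3.49-fold) were raised in the same way, while Nid1 (1.01-fold) and Smoc1 (1.02-fold) were not. The fold of a gene between groups is free of its length, but levels of different genes are not.

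**Figure D4:**
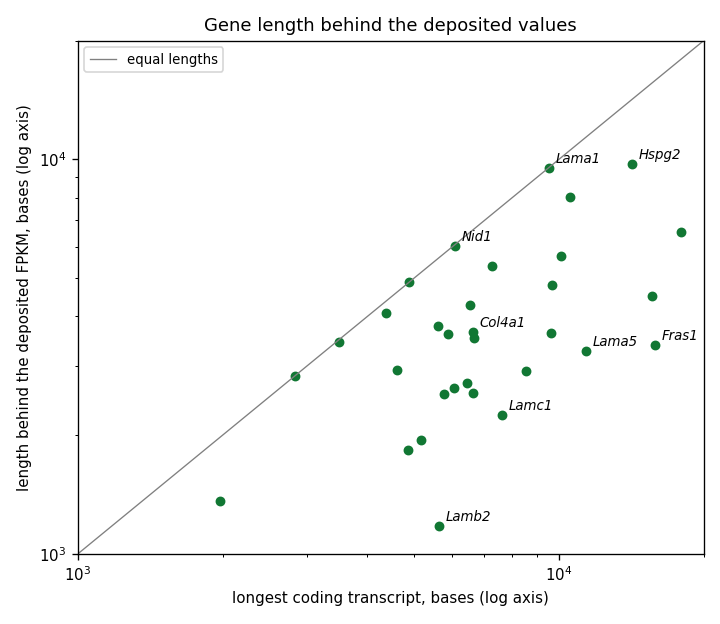
Length behind the deposited FPKM against the longest coding transcript in GENCODE M21, in bases on log axes, for the 32 members. The line marks equal lengths. Lamb2 (1180 against 5629 bases) lies farthest below it, and Nid1 and Lama1 lie on it.

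With reads divided by the longest coding transcript, Lamb2 and Lamb1 were at 91.7 ± 4.12 and 22.0 ± 0.116 FPKM in DMSO plus DEX and at 53.1 ± 5.00 and 65.1 ± 0.520 in GA plus DEX (SD, n = 2). Lamb1 thus led Lamb2 in both GA libraries on this scale, with shares of 56.6% and 53.6%, and trailed it in both DMSO libraries, with 18.8% and 19.9%. Lamb1 plus Lamb2 together were at 116 and 111 FPKM with DMSO and 114 and 122 with GA, so their sum overlapped between the groups. On the deposited scale that sum was 501 and 474 against 384 and 419.5, which did not overlap. On the recomputed scale the Lamc1 to Lama4 ratio went from 0.777 and 0.770 to 1.07 and 1.15. The Col4a1 to Col4a2 ratio was 1.03 and 1.04 with DMSO and 1.40 and 1.39 with GA on this scale. The lowest chains with DMSO were then Lamb1 for laminin 411 and Lamc1, at 26.5 FPKM, for 421, and with GA again Lama4 for both, at 44.5. At 1 recomputed FPKM, 4 laminin trimers (211, 221, 411 and 421) could be formed with DMSO and 6 with GA, where Lama3 at 1.10 ± 0.0617 FPKM added 311 and 321. The mean of Lama3 with DMSO, 0.996 ± 0.00652, was just under the minimum, so this difference is no larger than the choice of the minimum.

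Among the linkers, nidogen 1 and nidogen 2 parted. Nid1 was at 28.4 and 29.9 FPKM with DMSO and at 86.7 and 86.5 with GA, 2.97-fold (log2 fold change 1.54 ± 0.05 (SE), adjusted p = 6.57e-07 from limma). Nid2 was at 29.3 and 30.5 FPKM against 33.3 and 35.3, 1.15-fold (log2 fold change 0.19, adjusted p = 0.0241), at the median of all genes. It did not pass after the shift (adjusted p = 0.617), nor without DMSO plus DEX replicate 1 (0.130), DMSO plus DEX replicate 2 (0.0506) or GA plus DEX replicate 2 (0.0937). The Nid1 to Nid2 ratio went from 0.971 and 0.982 to 2.61 and 2.45. Levels of the nidogens can be compared on either scale, since both lengths were close to the longest transcript.

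The heparan sulfate proteoglycans also went opposite ways. Hspg2, perlecan, was at 117 and 106 FPKM with DMSO and at 145 and 153 with GA, 1.34-fold (log2 fold change 0.42 ± 0.07 (SE), adjusted p = 0.00135 from limma; 0.0634 after the shift). Agrn, agrin, which clusters acetylcholine receptors at the synapse, was at 46.6 and 47.1 FPKM against 27.9 and 30.4, 1.61-fold lower (log2 fold change -0.67 ± 0.06 (SE), adjusted p = 8.74e-05). The fall of Agrn passed after the shift as well.

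Smoc1 and Smoc2, calcium-binding relatives of SPARC found at basement membranes, exchanged their order. Smoc1 was at 1.39 and 1.41 FPKM with DMSO and at 32.8 and 34.4 with GA, 23.9-fold (log2 fold change 3.85 ± 0.07 (SE), adjusted p = 2.47e-08 from limma). Smoc2 was at 24.2 and 24.6 FPKM against 12.3 and 13.9, 1.86-fold lower (log2 fold change -0.85 ± 0.07 (SE), adjusted p = 5.40e-05). The Smoc1 to Smoc2 ratio was below 1 in both DMSO libraries (0.0576 and 0.0575) and above 1 in both GA libraries (2.66 and 2.47), also on the recomputed scale (2.61 and 2.43 with GA). Npnt, nephronectin, a ligand of integrin α8β1, was at 51.1 and 56.4 FPKM against 69.7 and 74.3, 1.34-fold (adjusted p = 0.00145). Tinagl1, a secreted relative of cathepsins, was at 4.59 and 5.10 FPKM against 3.06 and 2.44, 1.76-fold lower (adjusted p = 0.00173). Papln, papilin, was below the minimum of the test, at 0.150 and 0.152 FPKM against 0.670 and 0.656 (16 and 19 reads with DMSO, 59 and 66 with GA), and was called higher with no minimum (adjusted p = 0.00524).

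The remaining members were scarcely expressed. Fras1, whose protein anchors embryonic epithelium, had 28 to 52 reads per library, and its partner Frem1 0 to 3. The hemicentin genes Hmcn1 and Hmcn2 had 2 to 4 and 11 to 20. In all, 7 members had 20 reads or fewer in every library, and nothing is read from their differences.

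The receptors of basement membrane were counted in 16 genes, of which 13 were tested. In GA plus DEX 8 were higher, 2 lower and 3 did not pass (6 higher and 3 lower after the shift), with a median log2 fold change of 0.29. For this list and those below, the shares of all genes tested were 46.3% higher and 11.9% lower. After the shift they were 19.5% and 27.9%, and the median log2 fold change of all genes before it was 0.19. Itga1, the α1 integrin that binds collagen IV, rose from 4.82 ± 0.347 to 14.4 ± 0.223 FPKM (SD, n = 2), 2.99-fold (adjusted p = 4.49e-06 from limma). Cd151, a tetraspanin that holds laminin-binding integrins, rose 1.77-fold, and Dag1, dystroglycan, a receptor of laminin, perlecan and agrin, 1.59-fold. The syndecan genes Sdc3 and Sdc2 fell, 1.85-fold and 1.60-fold. The abundant β1 integrin gene Itgb1 (log2 fold change 0.09, adjusted p = 0.265) and Itga3 (-0.05, adjusted p = 0.508) did not pass.

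Of 15 genes that modify, fold and export collagen chains, 14 were tested. In GA plus DEX, where Col4a1 and Col4a2 rose, 9 were lower, 1 higher and 4 did not pass, with a median log2 fold change of -0.35. After the shift 13 were lower and none higher, where 27.9% of all genes were lower and 19.5% higher. P3h1, a prolyl 3-hydroxylase, fell 1.76-fold, P4ha2, a catalytic subunit of prolyl 4-hydroxylase, 1.60-fold, and Serpinh1, the collagen chaperone HSP47, 1.52-fold, from 1039.5 ± 1.06 to 685 ± 0.735 FPKM (SD, n = 2; adjusted p = 1.66e-04 from limma). These enzymes also serve fibrillar collagens. Plod3, lysyl hydroxylase 3, which glycosylates collagen IV, was the 1 gene higher (1.20-fold, adjusted p = 0.00443), and it did not pass after the shift. Plod1 (log2 fold change -0.06, adjusted p = 0.376) and Mia3, which helps collagen leave the endoplasmic reticulum (0.03, adjusted p = 0.669), did not pass.

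Other basement membrane genes, outside the 32, went both ways. Of 17 genes 11 were tested, with 4 higher, 5 lower and 2 not past the test (3 higher and 6 lower after the shift) and a median log2 fold change of -0.24. Efemp1, fibulin 3, rose 15.0-fold, from 0.904 ± 0.0743 to 13.5 ± 0.355 FPKM (SD, n = 2; adjusted p = 1.95e-07 from limma), Fbln5 1.82-fold and Matn2 1.39-fold. Col7a1, the anchoring fibril collagen, fell 2.85-fold, Fbln2 2.11-fold and Sparc, which binds collagen IV and is also an abundant bone protein, 1.54-fold, a call lost with no minimum (adjusted p = 0.361). Ntn1 (log2 fold change -0.24, adjusted p = 0.0589) and Ntn4 (-0.10, adjusted p = 0.542), netrins that share domains with laminins, did not pass.

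Proteases that cut basement membrane and their inhibitors numbered 15, of which 13 were tested. In GA plus DEX 3 were higher, 6 lower and 4 did not pass (2 higher and 10 lower after the shift), with a median log2 fold change of -0.26. Mmp9, gelatinase B, which cuts collagen IV and is made by osteoclasts among others, rose from 41.3 ± 2.64 to 414 ± 2.92 FPKM (SD, n = 2), 10.0-fold (adjusted p = 3.01e-08 from limma), in libraries where osteoclast markers were higher too. Ctsk made up most of their sum and was 1.43-fold higher, while the other 5 were 5.61-fold (Acp5) to 16.5-fold (Ocstamp) higher and summed to 25.8 and 27.6 FPKM with DMSO and 166 and 143 with GA. The part of osteoclasts in this rise was not tested. Plau, urokinase, rose 1.28-fold, a call lost after the median shift and with voom. Mmp2, gelatinase A, fell 1.73-fold, its activator Mmp14 1.71-fold, and Timp1, an inhibitor of both gelatinases, 2.93-fold. Timp3 (log2 fold change -0.08, adjusted p = 0.266) did not pass.

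The enzymes that build and edit heparan sulfate changed by less. All 13 genes were tested, with 3 higher, 6 lower and 4 not past the test (2 higher and 7 lower after the shift) and a median log2 fold change of -0.05. Sulf2, an extracellular 6-O-sulfatase, rose 1.80-fold (adjusted p = 3.70e-05 from limma), the 6-O-sulfotransferase gene Hs6st1 1.77-fold and Xylt2, which starts the chain, 1.18-fold, though Xylt2 did not pass after the shift, with voom or with no minimum. Sulf1 fell 1.30-fold, B3gat3 1.19-fold and the polymerase gene Ext2 1.15-fold, and the last 2 did not pass with no minimum. Hs2st1 (log2 fold change -0.05, adjusted p = 0.529) and Glce (0.01, adjusted p = 0.917) did not pass. The count of lower genes was 1 without DMSO plus DEX replicate 2, 1 without GA plus DEX replicate 1 and 3 without DMSO plus DEX replicate 1.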

How the data were processed

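RNA of mBMSCs was sequenced in 4 libraries, 2 for each treatment. The authors deposited 1 table of FPKM values for all 4 libraries. The submitters' processing notes name TopHat2 2.0.12, Bowtie2 2.2.3, HTSeq 0.6.1 and the build mm9, with no role for each. The annotation release and the gene lengths were not stated. FPKM values of 23404 genes above 0 gave whole reads within 0.001, and of 9043 genes with at least 200 reads in every library 65.5% had the mean length of their GENCODE M21 transcripts (GRCm38), so the lengths behind the values were taken from that annotation where they fit. Elsewhere the shortest length that gave whole reads in all 4 libraries was taken. It fixes recovered reads and recomputed levels only up to a common factor. Genes with a mean of 1 FPKM or more (12174) entered limma 3.58.1 (R 4.3.3) as log2(FPKM + 1) (trended empirical Bayes, 2 residual and 5.38 prior degrees of freedom, Benjamini-Hochberg adjustment, threshold 0.05). The deposited FPKM were not scaled further, and the median log2 fold change of all genes tested was 0.19. Alternatives were other pseudocounts and minimums, a shift to a common median, quantile normalization, no trend, a replicate block, leaving out each library, and, chosen after seeing the data, voom on the recovered reads and the length of the longest coding transcript. Promoter stretches and motifs came from RefSeq windows (GRCm38.p6), and 10 members had no window there.

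The members and companion lists were chosen with earlier results of these data known. All 32 members are given. From each companion list the text names up to 3 genes per direction with the largest log2 fold change among those past the threshold, with a mean of at least 5 FPKM and no overlap of the groups, and up to 2 of the most abundant that did not pass. The marker genes were named outside that rule, after their values were seen. Some genes of the companion lists are not reported here by name.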

Additional observations from a re-analysis of the deposited data

How the results depend on the processing

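Over 14 alternatives and the 21 members tested, 264 of 290 fold changes kept their direction and their side of the threshold, 14 lost the call and 12 changed sign. The sign changes were in small values. The log2 fold change of Lama2 was -0.0037 after quantile normalization. That of Lama3 was -0.15 after the median shift, -0.16 after quantile normalization and -0.078 with voom. For Lama5 it was -0.23, -0.24 and -0.20 under the same alternatives, -0.043 without DMSO plus DEX replicate 2 and -0.036 without GA plus DEX replicate 2, in a range of -0.043 to 0.056 when 1 library was left out. For Nid2 it was -0.038, -0.011 and -0.0099 under the median shift, quantile normalization and voom. The median shift takes 0.23, the difference of the libraries' medians, from every log2 fold change, and the cause of the other sign changes was not tested. Members called higher numbered 15 of 32 tested with no minimum, a setting for which the share of all genes is not reported here. Of 21 tested, members called higher numbered 10 after the median shift, 12 after quantile normalization and 12 with voom. Across the alternatives, members called lower numbered 4 to 5.

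With the length of the longest coding transcript, the GA minus DMSO difference was 35.8 points in place of 26.7 for the Lamb1 share, -0.181 in place of -0.270 for the Lama5 share, -3.95 in place of -2.93 for the Col4a5 share, and 0.360 in place of 0.275 for the Col4a1 to Col4a2 ratio. Leaving out 1 library gave 25.3 to 28.1 points for the Lamb1 share and 0.268 to 0.282 for that ratio. Laminin and collagen IV trimers with every chain at the minimum numbered 9 in each group, 5 in each at 5 FPKM, 10 with DMSO and 12 with GA at 0.5 FPKM, and 5 with DMSO and 7 with GA with the longest transcript.

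Same-numbered libraries did not deviate together across the 12174 genes (r = -0.025). That correlation cannot settle whether the numbers mark a shared animal or batch, since the deviations may be technical. Whether the samples are paired is therefore not known. A replicate block gave the same counts, 14 higher and 5 lower.

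Depth limits the low members, and 2 libraries a group leave no exact test under a two-sided p of 0.333. Lists that moved by over 1.5 times were collagen maturation genes (none higher in place of 1 after the median shift, quantile normalization or voom), the proteases (10 lower in place of 6 after the median shift, quantile normalization or voom), the other basement membrane genes (3 lower in place of 5 without DMSO plus DEX replicate 2 or with no minimum) and heparan sulfate genes (2 lower in place of 6 with no minimum, and 1 to 5 when 1 library was left out).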

Other observations

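The 8 bone marrow stroma markers split, with 3 higher, 3 lower and 1 of the 7 tested not past the test, and their summed FPKM went from 440.5 to 449.9 with DMSO to 1124 to 1127 with GA. Cxcl12 carried that rise, and the other 7 summed to 221 and 222 FPKM against 201 and 204. The 5 Schwann cell markers, of a cell type that is wrapped by laminin 211, summed to 11.4 to 13.2 FPKM and 21.0 to 22.8, with both genes tested higher in GA plus DEX.

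Among 9043 genes with at least 200 reads in every library, the length behind the deposited FPKM equalled the mean of the annotated transcript lengths in 65.5% and the union of exons in 4.71%. Genes with many short annotated fragments are therefore listed at higher FPKM than their reads per kilobase of full transcript. Fras1 (4.67-fold), Lama5 (3.49-fold) and Hmcn2 (3.48-fold) followed Lamb2 (4.77-fold) in this difference among the members. The length behind Hmcn2 did not equal the mean of its transcript lengths and was the shortest that gave whole reads.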
